A study of Mus musculus with 12 samples.

Results

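Round spermatids are the haploid germ cells that leave meiosis and later reshape into sperm, and their transcripts were compared between Pan2 knockout (KO) and wildtype (WT) mice. The comparison used 6 of the 12 libraries, namely the 3 labelled KO and round spermatid and the 3 labelled WT and round spermatid, and the other 6 came from spermatocytes at the second meiotic division (MII). KO animals carried a deleted and a floxed Pan2 allele together with Stra8-Cre (Pan2flox/-;Stra8-Cre), in which Cre recombinase is driven by the promoter of Stra8, a gene that germ cells switch on as they enter meiosis. The controls are labelled wildtype only. The sources used here do not say whether they carried Cre or a floxed allele, nor the age, strain and number of the animals. Cells were sorted by FACS, and polyadenylated RNA was made into Smart-seq2 libraries, which start from oligo(dT) primers on the poly(A) tail and copy the transcript over its length. Because capture starts at the tail, a count reflects both how much of a transcript was present and how well its tail was primed, and in sorted cells pooled into 1 library fewer cells of a type and less RNA per cell cannot be told apart. Nothing in the labels says that the 3 libraries of a group came from separate animals, so p-values cover the spread between libraries alone, and that spread may be technical.

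PAN2 is the catalytic subunit of the PAN2-PAN3 complex, which shortens long poly(A) tails in the cytoplasm before the CCR4-NOT complex takes over. In spermatids many mRNAs, among them those of the protamines, are made early and kept untranslated until the nucleus condenses, and their tails are shortened when translation begins. The comparison addresses which transcripts differ in level between round spermatids labelled KO and WT for this enzyme.

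The 3 KO libraries held 31862857, 29218445 and 24326972 counts, and the 3 WT libraries 34057646, 32068535 and 26548977. Of 55291 genes in the count table, 21291 were tested. Levels are given as CPM, the share of a library's counts on a common large base after scaling of the libraries to each other (TMM), and are not divided by gene length, so they compare libraries and not genes. On the leading principal component of the 6 libraries, with 47.98% of the variance, the KO libraries lay at -68.47, -47.78 and -37.13 and the WT libraries at 47.55, 38.27 and 67.57, with no overlap. The 20 round spermatid markers, a list chosen with results of these data known, summed to between 8806 and 10140 CPM in KO and between 5947 and 8458 CPM in WT libraries. Markers of spermatocytes summed to between 10910 and 11400 CPM in KO and between 10070 and 11540 CPM in WT libraries, but a single gene, the lactate dehydrogenase gene Ldhc, gave 75.8% of these sums. The other spermatocyte markers summed to 2198, 2334 and 2571 CPM in KO and to 2865, 2517 and 3463 CPM in WT libraries, with overlapping ranges. Sums of different lists are not compared with each other.

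The Pan2 count did not follow the genotype in every library. Pan2 (chromosome 10, 128303335 to 128321358, plus strand, mm10) was at 22.57, 4.73 and 3.52 CPM in KO replicates 1, 2 and 3 and at 9.93, 8.13 and 12.95 CPM in WT libraries. KO replicates 2 and 3 were below all WT libraries, while the library labelled KO replicate 1 was above all of them. The log2 fold change of KO against WT was 0.003 (SE 0.53, edgeR quasi-likelihood test, adjusted p = 0.998) with all libraries and -1.32 (adjusted p = 0.00782) without that library. The count runs over all exons of the gene, and the labels do not name the floxed ones, so reads from exons outside the deletion are part of it. Pan3, which encodes the partner subunit that binds poly(A) RNA, was at 123.9, 137.6 and 141.3 CPM in KO and at 132.9, 111.4 and 137.9 CPM in WT libraries, with overlapping ranges and a log2 fold change of 0.08 (edgeR adjusted p = 0.813). In view of its Pan2 count, most counts of called genes are given with and without the library labelled KO replicate 1.

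Transcripts of somatic testis cells differed between the groups as well. Sertoli cells are the somatic nurse cells that surround germ cells in the tubule. Their 23 tested markers summed to 360.3, 61.11 and 93.23 CPM in KO replicates 1, 2 and 3 and to 16.85, 16.37 and 19.68 CPM in WT libraries. All 3 KO libraries were above all 3 WT libraries, and the library labelled KO replicate 1 was the highest (exact permutation test of the sums, two-sided p = 0.1, the smallest that 3 against 3 can give). Of these markers 22 had a positive log2 fold change and 13 were called higher, 4 without KO replicate 1. Clu, a secreted chaperone abundant in Sertoli cells, was at 157.6, 22.06 and 34.40 CPM in KO and at 1.20, 1.24 and 1.65 CPM in WT libraries. The transcription factors that define the cell type were low: Sox9 was at 1.48, 0.143 and 0.339 CPM in KO and at 0.114, 0.186 and 0.075 CPM in WT, and Gata4 at 0.514, 0.072 and 0.085 CPM in KO and at 0 in all WT libraries. For Leydig cells, the testosterone-producing cells between the tubules, 17 markers summed to between 130.4 and 141.8 CPM in KO and between 119.6 and 139.4 CPM in WT libraries, sums carried by Fdx1 and Scarb1. Of these 17 markers 7 were called higher and 1 lower (1 and 1 without KO replicate 1), with a median log2 fold change of 2.25, or 0.387 without that library. Among them 5 were at 0 in all WT libraries. With these set at a floor of 3 counts over the WT group, the median was 1.075. The log2 fold change was positive for 15 and negative for 2. Insl3, which defines the cell type, was at 1.80, 1.90 and 0.085 CPM in KO and at 0 in all WT libraries. Other members overlapped between the genotypes, such as Star at 1.80, 0.43 and 0.932 CPM in KO and at 0.916, 0.496 and 1.16 CPM in WT. Markers of peritubular, endothelial and stromal cells summed to between 205.7 and 262.0 CPM in KO and between 163.1 and 305.6 CPM in WT, sums of which the actin gene Actg2 gave 84.4%. Without it the sums were 55.72, 33.85 and 37.32 CPM in KO and 29.64, 30.21 and 28.29 CPM in WT libraries, with no overlap, and 1 of the 18 markers, Sparc, was called higher. Those of leukocytes and blood summed to between 14.40 and 28.49 CPM in KO and between 15.27 and 18.67 CPM in WT. The part of somatic transcripts in the gene groups described next was assessed only by a fit that has the log2 sum of the Sertoli markers as a covariate, and since that sum does not overlap between the genotypes, it takes up part of any genotype difference too.

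**Figure D1:**
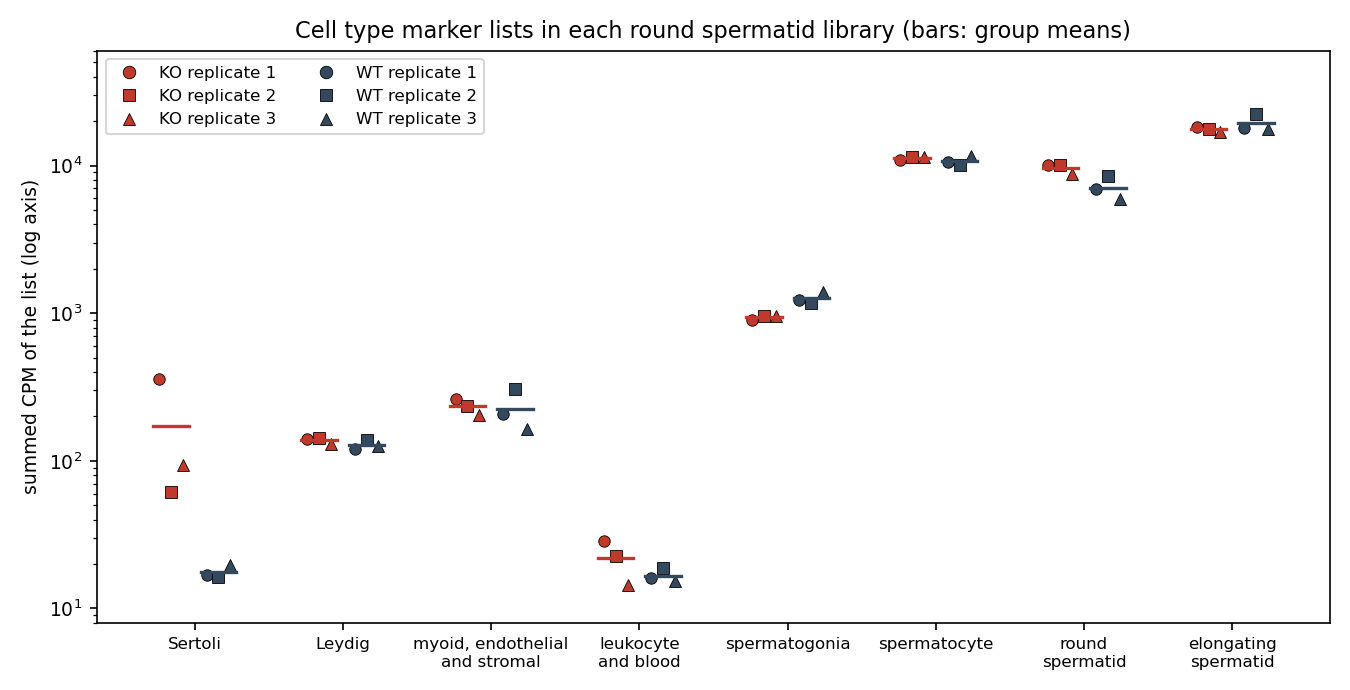
Summed CPM (log axis) of 8 cell type marker lists in each round spermatid library, with KO in red and WT in dark blue, 1 symbol per replicate and bars at the group means. The Sertoli sum is between 61.11 and 360.3 CPM in KO and between 16.37 and 19.68 CPM in WT libraries, while the ranges of the 2 genotypes overlap for Leydig, peritubular and stromal, leukocyte, spermatocyte and elongating spermatid markers.

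In all, 2863 genes (13.4% of those tested) differed between KO and WT round spermatids at an edgeR adjusted p under 0.05, 1290 higher (6.06%) and 1573 lower (7.39%). Of these, 494 rose and 683 fell at least 2-fold. Without the library labelled KO replicate 1, 1080 genes (4.95%) were called, 366 higher (1.68%) and 714 lower (3.27%). In both fits 1060 genes (4.98% of those tested) were called in the same direction, 364 higher and 696 lower, and 0 of the 2863 had the opposite sign without that library. The count also fell to 1483 without WT replicate 1, 1139 without WT replicate 3 and 1347 without KO replicate 2. Scaling by the total count alone gave 1014 higher and 1953 lower. With the Sertoli covariate 112 genes were called, of which 107 were lower. KO and WT values did not overlap for 7686 of all genes tested (36.1%) and for 2764 of the called ones. The library labelled KO replicate 1 was the highest KO library for 53.6% of the genes called higher, against 33.9% of all genes tested.

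Transcripts of 2 protamines and 2 transition proteins fell. Transition proteins replace histones in the condensing nucleus and protamines then replace the transition proteins. Prm1, which encodes protamine 1, was at 302.2, 257.5 and 213.6 CPM in KO and at 1383, 2097 and 1463 CPM in WT libraries. Prm2, which encodes the other protamine, was at 324.5, 300.9 and 233.7 CPM in KO and at 1294, 1861 and 1217 CPM in WT. Each KO library held less than any WT library for both genes. The log2 fold change was -2.68 (SE 0.254, edgeR adjusted p = 7.46e-06) for Prm1 and -2.35 (SE 0.208, edgeR adjusted p = 2.19e-06) for Prm2. Tnp2, the transition protein gene next to them on chromosome 16, was at 313.1, 292.2 and 220.5 CPM in KO and at 1143, 1659 and 1076 CPM in WT, a difference of -2.23 on the log2 scale (SE 0.231, edgeR adjusted p = 9.52e-06). Tnp1, on chromosome 1, encodes the other transition protein. It was at 192.1, 148.2 and 152.1 CPM in KO and at 355.1, 523.9 and 356.3 CPM in WT, a difference of -1.33 on the log2 scale (SE 0.225, edgeR adjusted p = 0.00122). Without the library labelled KO replicate 1 the values were -2.81 for Prm1, -2.45 for Prm2, -2.33 for Tnp2 and -1.46 for Tnp1. All 4 genes were called in each of the 12 fits that leave out 1 library and with the Sertoli covariate, where the largest adjusted p was 0.0172, that of Tnp1. In MII spermatocytes the 4 genes were called lower in KO as well (largest edgeR adjusted p = 0.0178, that of Tnp1). Their log2 fold changes there were -1.81 for Prm1, -1.36 for Prm2, -1.65 for Tnp2 and -1.03 for Tnp1.

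Prm3, the remaining gene of the protamine cluster and named after its values were seen, was not called. It was at 346.9, 343.8 and 282.2 CPM in KO and at 225.2, 408.3 and 205.3 CPM in WT libraries, with overlapping ranges and a log2 fold change of 0.21 (edgeR adjusted p = 0.672). Prm3 lies from 10790505 to 10790914 on the minus strand of chromosome 16, between Tnp2 (10787936 to 10788660) and Prm2 (10791380 to 10796134), with Prm1 from 10796326 to 10805839. The cluster thus held 3 genes that fell and, between them, 1 whose change did not pass the test. Because this list has 5 members, its count of 4 lower against 7.39% of all genes tested is given as a description.

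The promoters of the 5 genes are shown because these genes are transcribed in the same cells and did not all pass the test. Each run is RefSeq sequence of build GRCm38.p6 on the gene's own strand, from 250 bases before to 50 bases after the annotated start. For Prm1 and Prm2 the counted gene reaches further upstream, to 10805839 and 10796134. Their windows lie inside the counted gene and belong to another annotated start. Capitals mark a match to TGACNTCA, the cAMP response element bound by CREB and CREM family factors with its middle left free, or to TATAAA, searched on both strands.
Prm1, chr16:10796774-10797073, minus strand: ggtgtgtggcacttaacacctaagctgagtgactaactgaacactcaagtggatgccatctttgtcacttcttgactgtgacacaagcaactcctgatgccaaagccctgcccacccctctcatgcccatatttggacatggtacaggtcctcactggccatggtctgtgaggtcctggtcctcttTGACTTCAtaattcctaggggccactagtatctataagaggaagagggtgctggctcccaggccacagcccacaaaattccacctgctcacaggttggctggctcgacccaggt
Prm2, chr16:10792056-10792355, minus strand: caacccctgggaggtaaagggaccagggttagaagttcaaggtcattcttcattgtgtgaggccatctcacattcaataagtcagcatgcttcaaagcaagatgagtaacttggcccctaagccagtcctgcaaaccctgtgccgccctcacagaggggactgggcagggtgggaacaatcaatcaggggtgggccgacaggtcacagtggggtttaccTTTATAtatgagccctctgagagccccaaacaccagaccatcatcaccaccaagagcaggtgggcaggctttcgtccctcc
Tnp2, chr16:10788606-10788905, minus strand: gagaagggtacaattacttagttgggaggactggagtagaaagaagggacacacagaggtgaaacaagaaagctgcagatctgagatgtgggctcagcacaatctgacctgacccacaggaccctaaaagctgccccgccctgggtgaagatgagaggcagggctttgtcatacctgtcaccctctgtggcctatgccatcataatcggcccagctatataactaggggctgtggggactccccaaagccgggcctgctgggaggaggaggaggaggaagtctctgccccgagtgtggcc
Tnp1, chr1:73015850-73016149, minus strand: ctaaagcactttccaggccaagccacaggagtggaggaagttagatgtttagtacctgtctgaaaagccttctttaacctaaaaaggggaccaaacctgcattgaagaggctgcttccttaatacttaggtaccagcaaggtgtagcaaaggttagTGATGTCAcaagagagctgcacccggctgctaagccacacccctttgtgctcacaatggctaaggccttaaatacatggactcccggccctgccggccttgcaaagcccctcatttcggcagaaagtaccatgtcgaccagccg
Prm3, chr16:10790865-10791164, minus strand: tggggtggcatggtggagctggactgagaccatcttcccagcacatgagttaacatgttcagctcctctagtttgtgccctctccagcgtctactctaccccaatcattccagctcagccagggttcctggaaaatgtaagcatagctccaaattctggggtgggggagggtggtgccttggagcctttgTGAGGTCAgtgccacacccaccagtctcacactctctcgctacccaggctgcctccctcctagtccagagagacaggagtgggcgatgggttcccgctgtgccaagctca
TGACNTCA matched once in Prm1, as TGACTTCA starting 64 bases before the start, once in Tnp1 on the opposite strand at 94 bases before it, and once in Prm3 on the opposite strand at 60 bases before it. The match TTTATA in Prm2, TATAAA on the opposite strand, begins 31 bases before the start. Neither was found in the Tnp2 window. TGACNTCA was present in 8.83% of 32851 promoters of this length and TATAAA in 13.6%. Prm1 and Tnp1, which fell, and Prm3, whose change did not pass the test, each held a TGACNTCA match. Among tested genes with a TGACNTCA match, 9.71% were called higher and 6.58% lower, and among tested genes without one 5.90% and 8.80%.

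**Figure D2:**
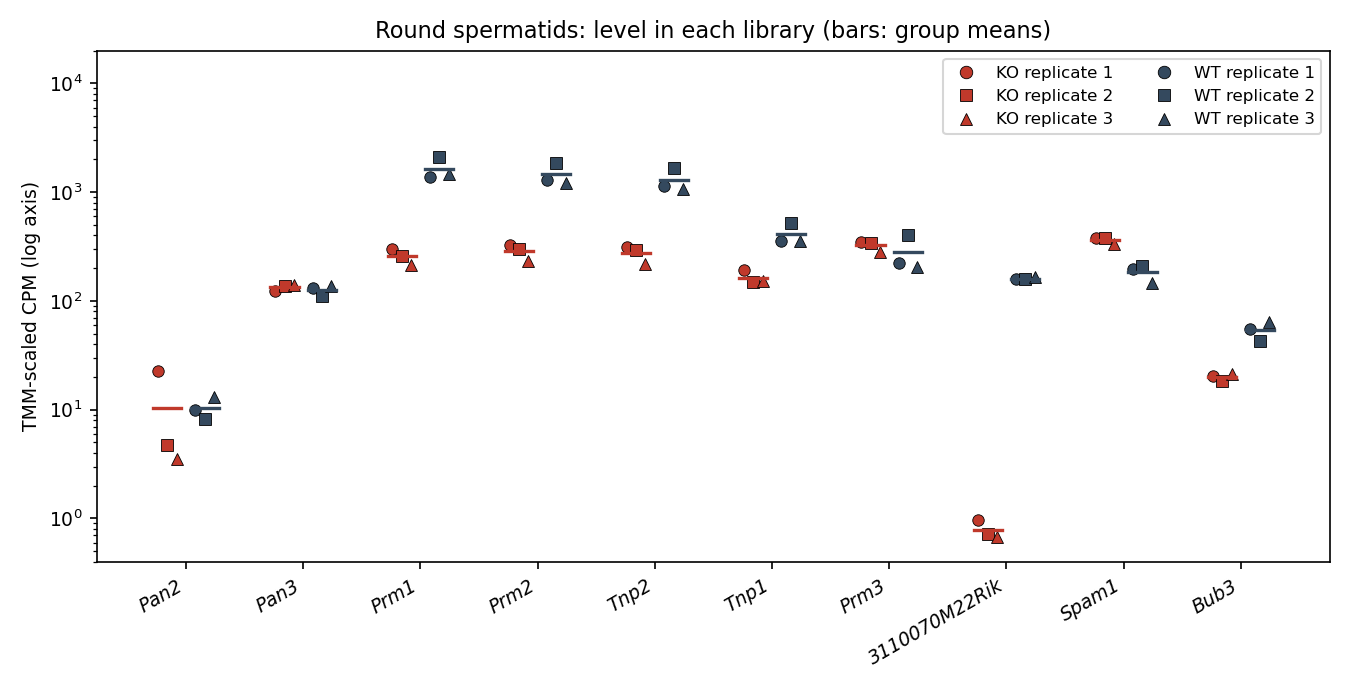
CPM (log axis) of 10 genes in each round spermatid library, with KO in red and WT in dark blue, 1 symbol per replicate and bars at the group means. Pan2 is highest in the library labelled KO replicate 1. Prm1, Prm2, Tnp2, Tnp1, 3110070M22Rik and Bub3 are lower in each KO library than in any WT library, Spam1 is higher in each KO library, and the ranges of Pan3 and Prm3 overlap.

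The largest fall of all genes named by size was that of 3110070M22Rik (chromosome 13, 119487252 to 119488384, minus strand, 2 annotated exons), a protein-coding gene in the annotation. It was at 0.965, 0.716 and 0.678 CPM in KO and at 157.6, 158.6 and 164.4 CPM in WT libraries, a difference of -7.65 on the log2 scale (SE 0.211, edgeR adjusted p = 6.60e-15). The KO libraries held next to none of this transcript, including the library labelled KO replicate 1. The other 11 of the 12 largest falls, chosen at a mean of at least 5 CPM, ranged from -3.27 to -2.50. Tex46, a testis-expressed gene, was at 1.13, 1.15 and 1.36 CPM in KO and at 10.76, 16.47 and 7.78 CPM in WT. Esyt3, a protein of contacts between the endoplasmic reticulum and the plasma membrane, was at 2.41, 1.33 and 0.805 CPM in KO and at 15.11, 18.83 and 9.84 CPM in WT. Car2, a carbonic anhydrase, was at 8.55, 8.67 and 4.49 CPM in KO and at 37.91, 53.65 and 37.87 CPM in WT. Separation of the KO and WT values was part of how these genes were chosen. Nqo2, a quinone reductase, had a log2 fold change of -3.01, Plekho2 of -3.09, the phosphatase gene Ppm1f of -3.03, Tmem151a of -2.67, 1700025G04Rik of -2.65 and Nudt16l2 of -2.50. Hmgb1-rs17 (-3.04) is an unprocessed pseudogene that may share reads with Hmgb1 and its copies, so its level is uncertain. The choice required a call with and without the library labelled KO replicate 1. All 12 falls were also called when any 1 of the other libraries was left out, with values between -7.83 and -2.32 over all of these fits, and 11 of them with the Sertoli covariate, the exception being Ppm1f (-3.10, edgeR adjusted p = 0.0884).

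Some of the 12 largest rises at a mean of at least 5 CPM were far higher in the library labelled KO replicate 1 than in the other KO libraries. The rest were at like levels in the 3 KO libraries, though Tmtc4, 4930548G14Rik and Htatsf1 among them were also highest in KO replicate 1. Clu, Defb19, Ctsl, Gstm2, Sparc and Gstm1 were of the first kind. Ctsl, the lysosomal protease cathepsin L and a Sertoli marker of the list, was at 56.07, 9.96 and 11.61 CPM in KO and at 1.14, 0.558 and 1.20 CPM in WT libraries. Defb19, a beta-defensin, was at 29.87, 4.37 and 8.22 CPM in KO and at 0.343, 0.558 and 0.225 CPM in WT. Sparc, a secreted matrix protein, and the glutathione transferases Gstm1 and Gstm2 had log2 fold changes of 2.92, 2.75 and 3.37. Without the library labelled KO replicate 1, where a call was required by the choice, the log2 fold changes were smaller, at 4.38 for Clu, 4.02 for Defb19, 3.48 for Ctsl, 1.86 for Gstm2, 1.91 for Sparc and 1.13 for Gstm1. Leaving out WT replicate 3 left sizes like those with all libraries, at 5.85 for Clu, 4.96 for Defb19, 4.90 for Ctsl, 3.58 for Gstm2, 2.86 for Sparc and 2.67 for Gstm1, with edgeR adjusted p between 0.0501 and 0.187, so that none of the 6 was called. Gstm1 and Gstm2 were called in 3 and 6 of the 12 fits that leave out 1 library. With the Sertoli covariate Clu was still called (2.06, edgeR adjusted p = 0.0126) and the other 5 were not. Clu and Ctsl are themselves members of the Sertoli sum, of which Clu gave 38.4%. For these genes the fit adjusts a gene in part for itself, so neither outcome is informative.

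The other 6 were Slco5a1, Tmtc4, Kcnab1, 4930548G14Rik, Htatsf1 and 4930515L19Rik. Slco5a1, a member of the organic anion transporter family, was at 9.74, 10.78 and 8.81 CPM in KO and at 2.29, 3.78 and 3.52 CPM in WT libraries, a difference of 1.62 on the log2 scale (SE 0.262, edgeR adjusted p = 0.000748). Tmtc4, an enzyme that adds mannose to proteins in the endoplasmic reticulum, was at 15.98, 15.22 and 12.07 CPM in KO and at 4.55, 6.48 and 3.48 CPM in WT, a log2 fold change of 1.57. Kcnab1, a subunit of potassium channels, had a log2 fold change of 1.505 and the lincRNA 4930548G14Rik one of 1.49. Htatsf1, a factor of transcript elongation and splicing, rose by 1.46 and 4930515L19Rik by 1.38 on the same scale, and both lie on the X chromosome. 4930515L19Rik is annotated as antisense, and since the sources used here do not state the strand setting of the counting, its reads cannot be told from those of a partner on the other strand. These 6 were called when any 1 of the libraries other than KO replicate 1 was left out, the call without KO replicate 1 being part of the choice. With the Sertoli covariate they were not called (edgeR adjusted p between 0.182 and 0.442), at 1.25 for Slco5a1, 1.22 for Tmtc4, 1.59 for Kcnab1, 1.03 for 4930548G14Rik, 1.19 for Htatsf1 and 1.21 for 4930515L19Rik.

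Genes of the acrosome, the vesicle over the front of the sperm head that holds enzymes and is built in round spermatids, were higher more often than lower. Of 65 tested, 17 were called higher and 5 lower, 6 and 0 without the library labelled KO replicate 1, with a median log2 fold change of 0.29 against -0.011 over all genes tested. Among all genes tested 6.06% were higher and 7.39% lower, or 1.68% and 3.27% without that library. Spam1, the hyaluronidase of the acrosome, was at 379.4, 380.3 and 331.6 CPM in KO and at 195.1, 207.4 and 147.5 CPM in WT libraries, a difference of 0.99 on the log2 scale (SE 0.179, edgeR adjusted p = 0.00194). Acrv1, a protein of the acrosomal matrix, was at 1100, 1077 and 946.4 CPM in KO and at 636.3, 776.0 and 498.4 CPM in WT, a log2 fold change of 0.71. All KO libraries were above all WT libraries for both. Eqtn, a protein of the acrosomal membrane, had a log2 fold change of 0.92 and the X-linked Spaca5, an acrosomal lysozyme-like protein, of 0.82. In the list of sperm-egg fusion and ADAM family genes, 9 of 33 rose and 0 fell (4 and 0 without KO replicate 1, median 0.39). Its called members included the testis-expressed metalloprotease-like genes Adam25 (0.78), Adam26a (0.76) and Adam39 (0.88), which are close copies on chromosome 8 and may share reads, and Tmem95 (0.66), a sperm membrane protein needed for fusion with the egg.

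The list of round spermatid markers, chosen with results of these data known, had 8 of 20 members higher and 0 lower (3 and 0 without KO replicate 1, median 0.41). In either direction 40.0% of this list was called, against 13.4% of all genes tested. Catsper3, a subunit of the sperm calcium channel, was at 410.3, 411.4 and 337.8 CPM in KO and at 224.0, 280.0 and 174.9 CPM in WT libraries, a log2 fold change of 0.77. Spaca1, an acrosomal membrane protein, had one of 0.65. Sun5, which anchors the tail to the nucleus, had one of 0.79. With the Sertoli covariate 0 members of the acrosome, fusion and round spermatid marker lists were called, with values of 0.90 for Spam1 and 0.63 for Catsper3. Leaving out each library in turn gave between 3 and 24 acrosome genes higher.

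Among genes of the flagellum the share called differed between lists. Of 88 axoneme genes 4 were higher and 6 lower (0 and 2 without KO replicate 1), and of 55 manchette and head-tail coupling genes 3 and 5 (1 and 0). Of 28 genes of the fibrous sheath and outer dense fibres 5 were higher and 2 lower (2 and 2). Over all genes tested 6.06% were higher and 7.39% lower, and the axoneme and manchette counts are near these shares. Zmynd10, needed to assemble dynein arms, was at 82.57, 95.06 and 112.1 CPM in KO and at 180.4, 167.4 and 250.03 CPM in WT libraries, a log2 fold change of -1.05 (edgeR adjusted p = 0.00299). Cabyr, a calcium-binding protein of the fibrous sheath, had a log2 fold change of 0.71. Odf3b, a relative of an outer dense fibre gene, was low in all libraries, with 0.579, 0.931 and 0.678 CPM in KO and 8.04, 9.02 and 5.76 CPM in WT, and fell by 3.38 on the log2 scale. Klc3, a kinesin light chain of the midpiece, fell by 3.48. Of the 22 markers of elongating spermatids 7 were lower and 2 higher (6 and 1 without KO replicate 1). The 7 include Prm1, Prm2, Tnp2 and Tnp1 of the list above as well as Car2 and Tssk6. The list did not fall as a whole, with a median log2 fold change of 0.163, 12 members above 0 and 10 below. Tssk6, a kinase needed for histone replacement, was at 19.58, 20.63 and 18.13 CPM in KO and at 53.85, 69.44 and 41.65 CPM in WT, a difference of -1.499 on the log2 scale (SE 0.206, edgeR adjusted p = 0.000159).

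Among genes of energy supply, the glucose transporter gene Slc2a3 fell by 1.48 on the log2 scale (edgeR adjusted p = 6.69e-05), with 149.7, 144.9 and 178.3 CPM in KO and 423.4, 314.2 and 582.9 CPM in WT libraries. Its list of spermatid glycolysis genes had 5 of 27 members higher and 1 lower (2 and 1 without KO replicate 1). The 5 included the X-linked Pgk1 (1.20) and Ldhb (4.05), a lactate dehydrogenase subunit that was highest in the library labelled KO replicate 1, at 11.19, 2.36 and 2.03 CPM in KO and at 0.229, 0.310 and 0.412 CPM in WT. Of 75 nuclear genes of oxidative phosphorylation 1 rose and 5 fell (0 and 3 without KO replicate 1), and of 11 mitochondrially encoded mRNAs 0 were called. The 8.0% of the oxidative phosphorylation list called in either direction was below the 13.4% of all genes tested. Its median log2 fold change was 0.111, with 49 members above 0 and 26 below.

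Of the genes of the meiotic divisions, more were called lower than higher. These genes serve chromosome segregation and the cell cycle and are active in late spermatocytes, ahead of the round spermatid stage. Of 65 tested, 18 were lower and 1 higher, 12 and 0 without the library labelled KO replicate 1, with a median of -0.26, and 46 were not called in either direction. Among all genes tested 7.39% were lower and 6.06% higher, or 3.27% and 1.68% without that library. Bub3, a subunit of the spindle checkpoint, was at 20.26, 18.45 and 21.27 CPM in KO and at 55.10, 43.14 and 63.91 CPM in WT libraries, a difference of -1.43 on the log2 scale (SE 0.166, edgeR adjusted p = 2.75e-05). Cdc20, the activator of the anaphase-promoting complex, was at 61.76, 65.37 and 71.55 CPM in KO and at 156.0, 136.6 and 207.3 CPM in WT, a log2 fold change of -1.33. KO and WT values were apart for both. Cdca8, a subunit of the chromosomal passenger complex, had a log2 fold change of -1.08 and the kinesin gene Kif22 of -1.05. All 4 were called when any 1 library was left out. With the Sertoli covariate Bub3 (-1.53, edgeR adjusted p = 0.0212) was the 1 member of the list called lower, and 0 were higher. Leaving out each library in turn gave between 12 and 20 lower members.

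Of the 18 spermatocyte markers 7 were lower and 0 higher (3 and 0 without KO replicate 1, median -0.52), among them Ccna1 (-0.75), the germ cell cyclin A, Ccnb1 (-0.73), a mitotic cyclin, Pttg1 (-0.90), the inhibitor of separase, and Piwil1 (-0.78), the Argonaute protein of pachytene piRNAs. Ldhc, the gene with most of the summed CPM of this list, was at 8709, 9066 and 8774 CPM in KO and at 7721, 7556 and 8081 CPM in WT libraries. The piRNA pathway list had 6 of 34 members lower and 1 higher (3 and 0 without KO replicate 1), and meiotic prophase genes 4 of 51 lower and 2 higher (2 and 0). The 11.8% of the meiotic prophase list called in either direction was near the 13.4% of all genes tested. That share was 38.9% for the spermatocyte markers and 20.6% for the piRNA pathway list. Mlh3, a mismatch repair protein of crossover sites, was at 2.22, 1.40 and 2.29 CPM in KO and at 6.12, 5.02 and 8.53 CPM in WT libraries, a log2 fold change of -1.73 (edgeR adjusted p = 0.000314).

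Several genes of the unfolded protein and integrated stress response were lower. Of 33, 8 were lower and 3 higher, 4 and 1 without the library labelled KO replicate 1. In either direction 33.3% of this list was called, against 13.4% of all genes tested. Herpud1, a component of the pathway that removes misfolded proteins from the endoplasmic reticulum, was at 19.74, 19.27 and 18.64 CPM in KO and at 56.76, 66.90 and 59.16 CPM in WT libraries, a difference of -1.66 on the log2 scale (SE 0.157, edgeR adjusted p = 4.43e-06). Hyou1, a chaperone of the same compartment, had a log2 fold change of -1.62 and Atf4, the transcription factor of the integrated stress response, of -0.91. Insig1, a sterol-sensing regulator of cholesterol synthesis, was at 1.80, 0.645 and 0.678 CPM in KO and at 5.55, 5.80 and 5.09 CPM in WT, a log2 fold change of -2.37. It was 1 of 4 lower members of the 27 in its list, where 0 were higher (1 and 0 without KO replicate 1). The 14.8% called in that list was near the share of all genes tested. Both Herpud1 (-1.70) and Insig1 (-3.87) were called with the Sertoli covariate (edgeR adjusted p 0.00654 and 0.00144).

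**Figure D3:**
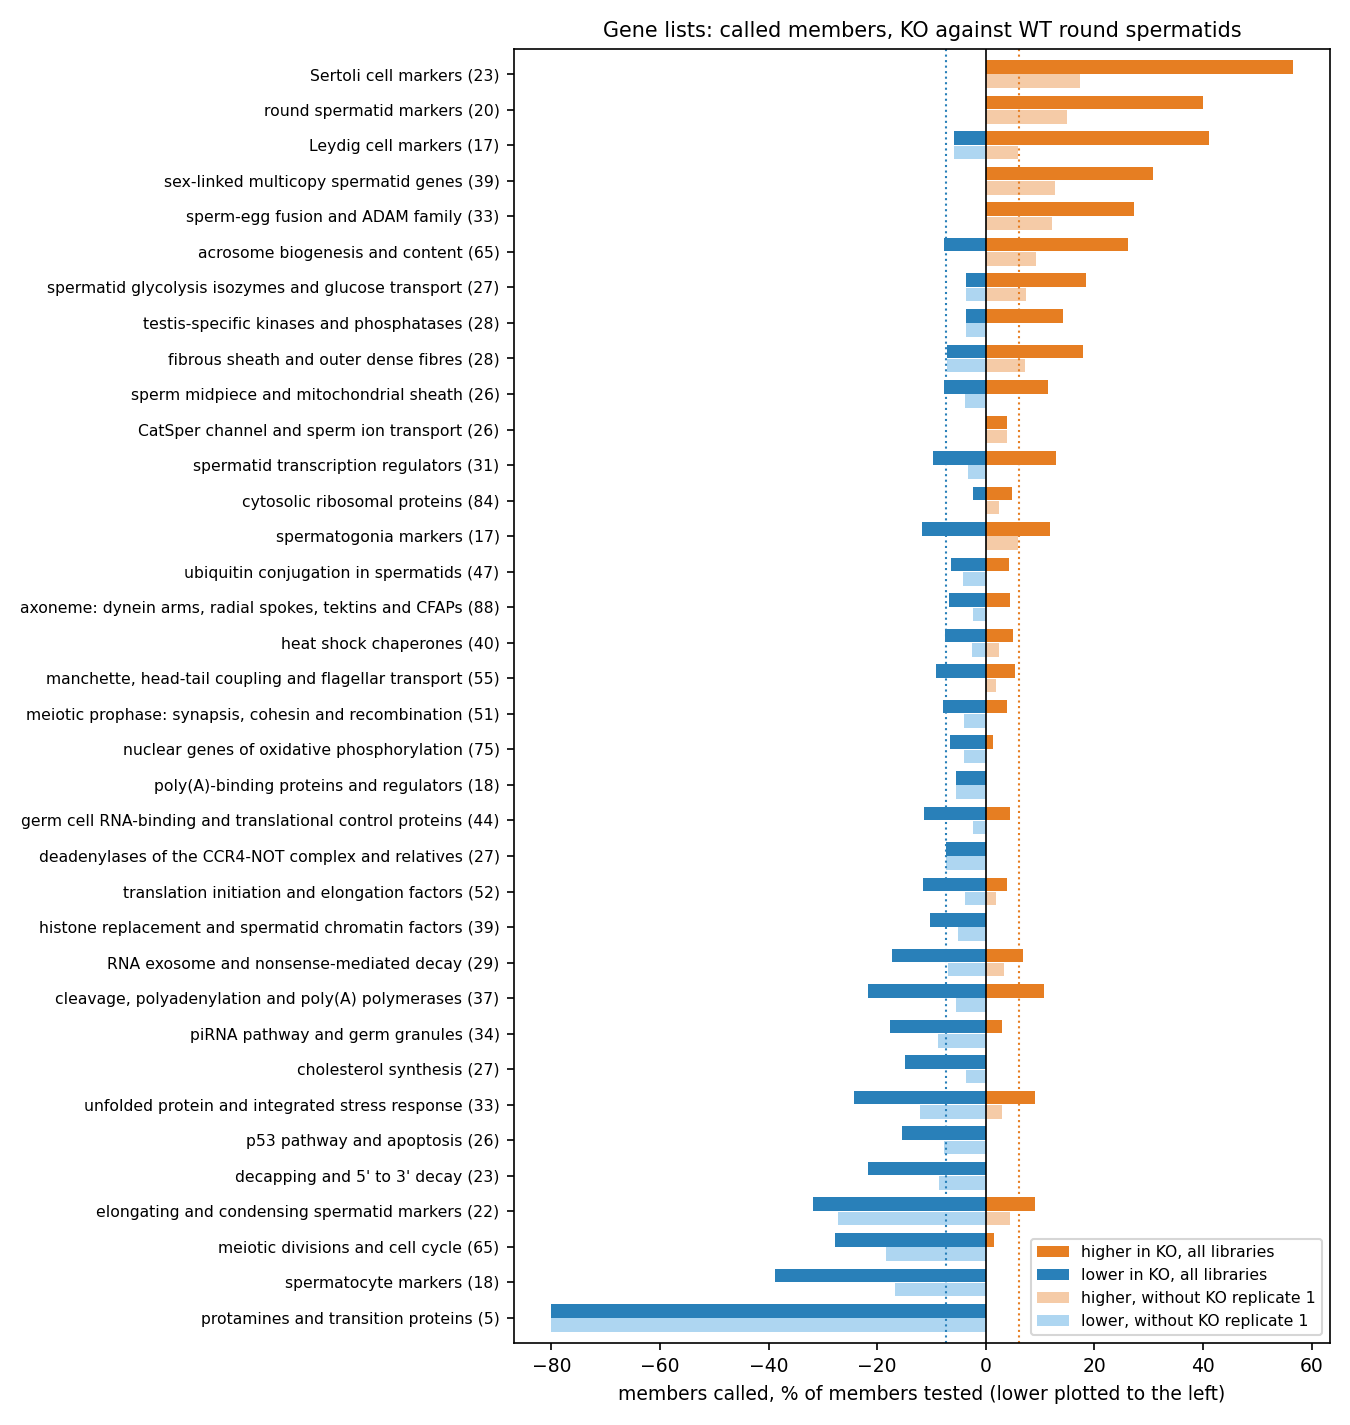
Members of the gene lists called higher (to the right) or lower (to the left) in KO than in WT round spermatids, as a percentage of the members tested, whose number stands in brackets. The lists of peritubular, endothelial and stromal markers, of leukocyte and blood markers and of mitochondrially encoded mRNAs are not drawn. Dark bars use all libraries, pale bars leave out the library labelled KO replicate 1, and dotted lines mark the shares over all genes tested (6.06% higher, 7.39% lower). The protamine and transition protein list has 4 of 5 members lower in both, and the Sertoli list 13 of 23 higher with all libraries.

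The next lists hold genes that act on mRNA tails, decay and translation, the processes PAN2 takes part in. Of 27 deadenylase genes 0 were higher and 2 lower: Tob2, which brings deadenylases to their targets, at -0.86 (edgeR adjusted p = 0.0105), and Pnldc1, the trimmer of piRNA 3′ ends, at -1.21 (edgeR adjusted p = 0.029). Without the library labelled KO replicate 1 the 2 lower members were Pan2 and Pnldc1, and Tob2 was at -0.79 (edgeR adjusted p = 0.0666). The share of this list called lower was 2 of 27, against 7.39% of all genes. Of 18 poly(A)-binding proteins and regulators 1 was lower, Larp4b (-0.81), and of 37 cleavage and polyadenylation genes 4 were higher and 8 lower, 0 and 2 without KO replicate 1. Those 2 were Cstf2t (-0.87), a cleavage stimulation factor made in germ cells, and Fip1l1 (-0.72), a subunit of the poly(A) signal recognition complex. Decapping genes had 5 of 23 lower and 0 higher (2 and 0 without KO replicate 1). The largest change was that of Edc4, the scaffold of decapping, at 12.67, 13.90 and 16.52 CPM in KO and at 32.24, 25.99 and 45.28 CPM in WT libraries (log2 fold change -1.26, edgeR adjusted p = 0.00189). In either direction 5.56% of the poly(A)-binding, 32.4% of the cleavage and 21.7% of the decapping list were called. The share over all genes tested was 13.4%.

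In the list of exosome and nonsense-mediated decay genes, 2 of 29 rose and 5 fell (1 and 2 without KO replicate 1). In either direction 24.1% of this list was called, against 13.4% of all genes tested. Mtrex, the helicase of the nuclear exosome, was at 194.3, 211.3 and 207.9 CPM in KO and at 136.0, 131.0 and 128.1 CPM in WT libraries, a log2 fold change of 0.63 (edgeR adjusted p = 0.00423). Smg9, a regulator of the decay kinase SMG1, had one of -1.12. Translation factors had 2 of 52 members higher and 6 lower (1 and 2 without KO replicate 1). The 15.4% called in either direction was near the 13.4% of all genes tested. The median log2 fold change of translation factors was 0.013, with 29 members above 0 and 23 below. Eif1b, a paralog of the initiation factor that guards start codon choice, was at 35.66, 33.13 and 41.98 CPM in KO and at 97.68, 91.80 and 138.4 CPM in WT, a difference of -1.57 on the log2 scale (SE 0.158, edgeR adjusted p = 7.46e-06). It was called when any 1 library was left out and with the Sertoli covariate (-1.65, edgeR adjusted p = 0.00767). Of 84 cytosolic ribosomal protein genes 4 were higher and 2 lower (2 and 0 without KO replicate 1), and the 4 lie on the X chromosome. The share of this list called in either direction, 7.14%, was below the 13.4% of all genes tested. Its median log2 fold change was 0.129, with 71 members above 0 and 13 below. Rpl10 was at 6.82, 3.80 and 4.66 CPM in KO and at 1.95, 2.85 and 2.17 CPM in WT libraries. The other 3, Rpl39, Rpl36a and Rps4x, were near 0 in WT, such as Rps4x at 1.03, 0.143 and 0.424 CPM in KO and at 0, 0.062 and 0 CPM in WT. Of 44 germ cell RNA-binding proteins 2 were higher and 5 lower (0 and 1 without KO replicate 1), among them Pum2 (0.53), a repressor of translation, and Dazap1 (-0.81). The 15.9% of these genes called in either direction was also near the 13.4% of all genes tested.

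Genes on the sex chromosomes were called higher far more often than lower in KO round spermatids. In these cells the sex chromosomes are largely silenced after meiosis, and a set of multicopy and spermatid-specific genes escapes. Of 790 tested X-linked genes 238 (30.1%) were called higher and 2 lower, against 1008 (4.99%) higher and 1571 (7.78%) lower of 20205 autosomal genes. The median log2 fold change was 0.67 for X-linked and -0.037 for autosomal genes. Without the library labelled KO replicate 1, 95 X-linked genes were higher and 0 lower, with a median of 0.61. The X chromosome gave 1.507%, 1.447% and 1.318% of all counts in KO and 0.989%, 1.119% and 0.890% in WT libraries, with no overlap (exact permutation test, two-sided p = 0.1, the smallest that 3 against 3 can give). Of 281 Y-linked genes 44 were higher and 0 lower (6 and 0 without KO replicate 1), with a median of 0.725. Many Y-linked genes are near-identical copies whose reads may be shared.

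Among X-linked genes with a known role, Mageb5, a member of the melanoma antigen family, was at 35.56, 37.00 and 29.31 CPM in KO and at 16.48, 18.70 and 11.67 CPM in WT libraries, a difference of 1.12 on the log2 scale (SE 0.228, edgeR adjusted p = 0.00408). Cypt2, a cysteine-rich perinuclear theca protein, was at 225.2, 198.9 and 187.9 CPM in KO and at 90.61, 129.0 and 91.38 CPM in WT, a log2 fold change of 0.98. For both the groups were apart. In the list of sex-linked multicopy spermatid genes 12 of 39 were higher and 0 lower (5 and 0 without KO replicate 1), and its median of 0.56 was below that of all X-linked genes. On the Y chromosome the translation factor gene Eif2s3y was at 158.7, 149.5 and 149.5 CPM in KO and at 97.79, 96.20 and 80.60 CPM in WT, a log2 fold change of 0.74 (edgeR adjusted p = 0.0107).

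X-linked genes were divided by their mean level over the 6 libraries, after seeing the data. Of 528 with a mean of at least 1 CPM, 196 were higher and 1 lower (85 and 0 without KO replicate 1), with a median of 0.593. Of the 262 under that level, 42 were higher and 1 lower (10 and 0), with a median of 1.16. The 57 X-linked genes with a log2 fold change above 3 had a median of 0.0249 CPM in WT, and 51 of them were highest in the library labelled KO replicate 1. Their summed CPM was 97.7, 17.9 and 23.6 in KO and 2.89, 2.45 and 2.32 in WT libraries. The Sertoli sum has the same order among the KO libraries, but a link between them was not tested. These genes were chosen by their fold change, and 22 were at 0 in all WT libraries, which favours genes high in 1 KO library. With a filter of 5 CPM in 3 libraries, 171 of 324 X-linked genes were higher and 0 lower. The number of higher X-linked genes went down to 92 without WT replicate 3 and to 115 without WT replicate 1. With the Sertoli covariate it was 0, and the median was 0.438.

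**Figure D4:**
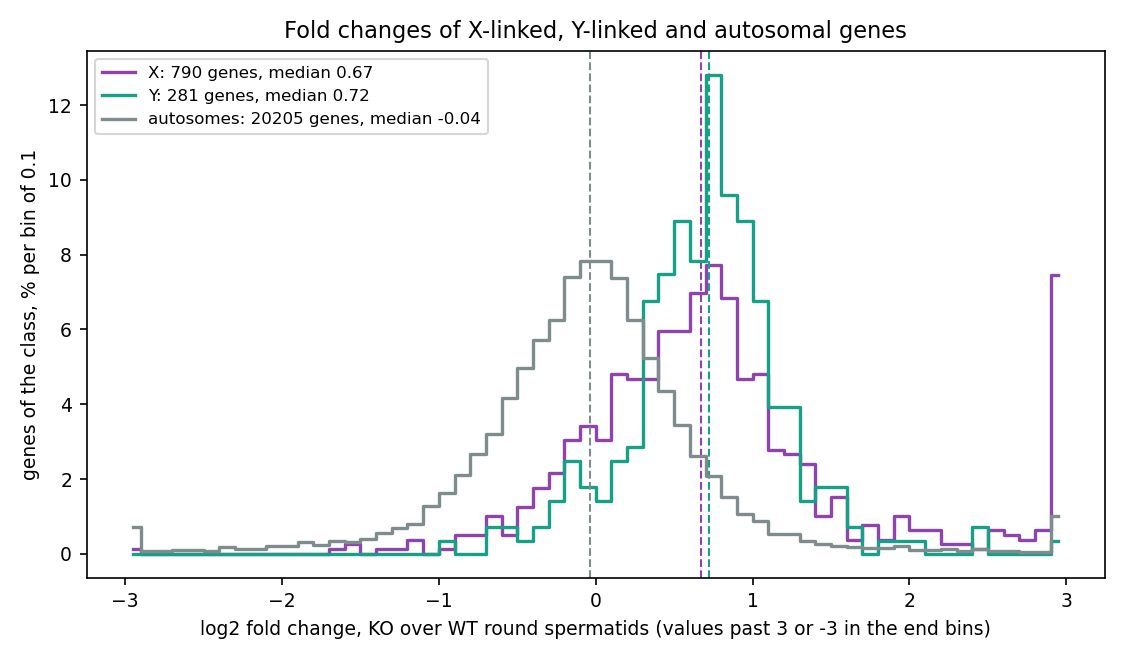
Distribution of the log2 fold change of KO over WT round spermatids for X-linked, Y-linked and autosomal genes, as a percentage of the genes of each class per bin of 0.1, with dashed lines at the medians. The medians are 0.67 for X-linked, 0.725 for Y-linked and -0.037 for autosomal genes, and the end bin of the X curve holds the genes above 3.

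Fold changes also went with the GC content of the transcript. Among autosomal genes in 5 equal groups by GC content, the median log2 fold change was 0.13, 0.047, -0.025, -0.085 and -0.274 in order of increasing GC. In the group of lowest GC 295 genes were higher and 116 lower (80 and 35 without KO replicate 1), and in that of highest GC 89 were higher and 566 lower (27 and 254). X-linked genes had a median GC content of 44.5% and autosomal genes one of 48.5%. Within the same GC groups the X-linked medians were 0.72, 0.67, 0.74, 0.617 and 0.293. A fit with a GC curve for each library, chosen after seeing the data, called 213 X-linked genes higher and 5 lower with a median of 0.582. In that fit the acrosome list had 19 members higher and 2 lower, the meiotic division list 1 and 17, and the ribosomal protein list 14 and 2, where it had 4 and 2 before. The values of Prm1 (-2.49), Prm2 (-2.09), Tnp2 (-1.93) and Tnp1 (-1.30) remained called.

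By gene type, 914 protein-coding genes were higher and 1328 lower of 14727 tested (265 and 581 without KO replicate 1), and 155 lincRNAs were higher and 84 lower of 2045 (47 and 37). These are 6.21% and 9.02% of the protein-coding genes and 7.58% and 4.11% of the lincRNAs. Among all genes tested 6.06% were higher and 7.39% lower. Among 363 unprocessed pseudogenes, most of which are copies of other genes and may share reads with them, 37 were higher and 2 lower (10.2% and 0.551%). Their median was 0.51, and without KO replicate 1 the counts were 9 and 1. With autosomal genes in 5 equal groups by CPM in round spermatids, the group of highest level had 355 genes higher and 299 lower (79 and 95 without KO replicate 1), and the group below it 244 higher and 546 lower (60 and 232). The shares were 8.78% and 7.4% in the highest group and 6.04% and 13.5% in the next, against 4.99% and 7.78% of autosomal genes.

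The genes that changed in round spermatids mostly had the same sign in MII spermatocytes, whose 6 libraries are separate but whose spread enters the same fit. In MII, 784 genes (3.68%) were called between KO and WT, 389 higher (1.83%) and 395 lower (1.86%). Of these 539 were called in the same direction in round spermatids, 262 higher and 277 lower, which is 18.8% of the round spermatid calls and 68.75% of the MII calls, and 0 in the opposite direction. Of the 1060 genes called in round spermatids with and without the library labelled KO replicate 1, 98.2% had the same sign in MII, against 68.9% of all genes tested, most of which were not called. Their median log2 fold change was -1.27 in round spermatids and -0.67 in MII for the 696 lower genes, and 1.03 and 0.70 for the 364 higher ones. The 23 Sertoli markers were also higher in KO in MII, with 5 called higher and 0 lower. Their median log2 fold change was 2.262 in MII and 2.348 in round spermatids. The part of somatic transcripts in the shared signs was not tested. In MII 87 X-linked genes were higher and 0 lower, and the median was 0.479. Herpud1 was at -1.66 in round spermatids and -0.43 in MII (edgeR adjusted p = 0.117 in MII), and 3110070M22Rik at -7.65 and -7.59.

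A test of the difference between the 2 KO effects, round spermatids minus MII, called 1 gene of 21291 (0.0047%), and 1405 had an unadjusted p under 0.05. DESeq2 called 19 and limma-voom 0. The gene was Acta2, the smooth muscle actin of myoid cells, at 6.66, 5.01 and 4.07 CPM in KO and at 3.40, 3.32 and 2.54 CPM in WT round spermatids (log2 fold change 0.76, edgeR adjusted p = 0.115), and lower in KO MII spermatocytes (log2 fold change -2.28, edgeR adjusted p = 0.000664). The difference of 3.04 had an edgeR adjusted p of 0.0269. Neither Prm1 nor Herpud1 was shown to differ between stages in its response, although each was further from 0 in round spermatids.

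**Figure D5:**
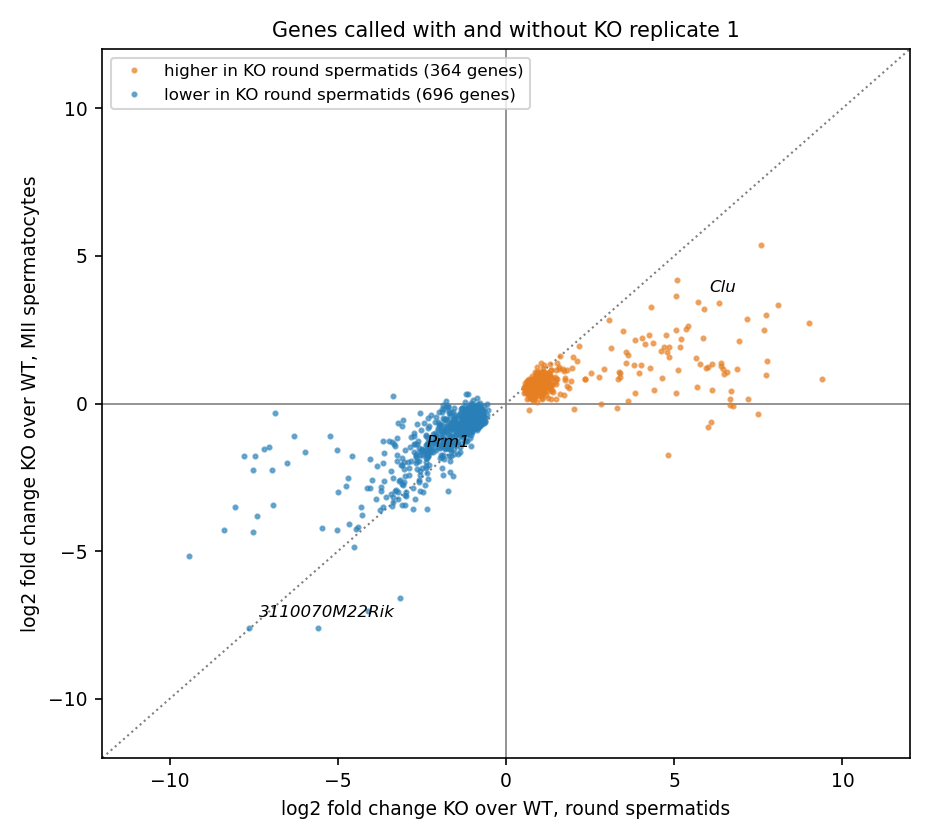
Log2 fold change of KO over WT in round spermatids (horizontal axis) and in MII spermatocytes (vertical axis) for the 1060 genes called in round spermatids both with and without the library labelled KO replicate 1. Each point is a gene, orange for the 364 higher and blue for the 696 lower ones, and the dotted line marks equal values. Most points lie in the quadrants of equal sign and many closer to 0 in MII, while 3110070M22Rik lies near the line.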

How the data were processed

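Sorted mouse testis cells were profiled with Smart-seq2 (about 12 preamplification cycles and 151 bp paired reads, per the labels' protocols). The deposited table holds whole-number counts of each gene in 12 libraries, unnormalized by the authors, and as another deposited value the summed exon length in bases. The submitters' processing notes name build mm10 and the tools STAR 2.7.10a, featureCounts 2.0.2, Trim Galore 0.6.7 and DESeq2, in no stated order. No source used here states the annotation release, the strand setting or what was done with reads of several positions, so near-identical, overlapping and antisense genes are uncertain. The library preparation did not use molecular identifiers as far as the labels say, so counting error understates the error of a value.

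From the deposited counts, genes passing filterByExpr (minimum count 10, minimum total 15) were scaled by TMM and tested with edgeR 4.0.16's robust quasi-likelihood F test on all 12 libraries, with 1 mean for each of 4 groups and 8 residual degrees of freedom (7 without the library labelled KO replicate 1). The biological coefficient of variation was 22.28%. Adjusted p-values are Benjamini-Hochberg values over all tested genes, with a threshold of 0.05, and an SE is the log2 fold change over the square root of F. Pearson correlations of log2 CPM within the groups of round spermatid libraries were 0.973 to 0.983 across genes, and no pair agreed within counting noise (9.28 to 51.3 for the chi-square statistic divided by its degrees of freedom). Total counts per library were between 13781370 and 38652066.

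Gene types and GC content came from GENCODE M21, for 20738 of the tested genes (97.4%) in the case of GC. Named genes were Pan2 and Pan3, the 12 largest rises and falls among genes called in the same direction with and without the library labelled KO replicate 1 at a mean of at least 5 CPM with no overlap between groups and without predicted genes, pseudogene and clone symbols, up to 4 called members of each of 39 lists in order of adjusted p, or 1 member where none was called, and up to 5 genes each way of the difference between stages. The text gives a part of them. The comparison, the lists and the rule were chosen with earlier results of these data known. Alternatives were DESeq2 1.42.0 and its size factors, limma-voom (limma 3.58.1), total count scaling, no filter and a stricter one, only the 6 round spermatid libraries, the replicate number as a block, the Sertoli covariate, abundant and mitochondrial genes left out, a fold change of at least 2, and each library left out. The GC curve, leaving out X and Y genes and the division of X genes by level were added after seeing the data. The main fit was also run on simulated counts with a fixed dispersion and known fold changes in KO round spermatids. That simulation held no deviating library and no somatic difference between genotypes, so it cannot show how the fit handles those seen here.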

Additional observations from a re-analysis of the deposited data

Results flagged for a closer look

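Acta2, the actin of smooth muscle and myoid cells, was the 1 gene whose KO effect differed between round spermatids and MII spermatocytes by the test of the difference itself (3.04 on the log2 scale, SE 0.440, edgeR adjusted p = 0.0269). It was at 9.88, 5.19 and 5.25 CPM in KO and at 51.27, 22.56 and 24.68 CPM in WT MII libraries, and at 6.66, 5.01 and 4.07 CPM in KO and at 3.40, 3.32 and 2.54 CPM in WT round spermatid libraries. All KO libraries were below all WT libraries in MII and above them in round spermatids. The marker list of peritubular, endothelial and stromal cells to which it belongs had 1 of 18 members higher and 0 lower in round spermatids, with a median log2 fold change of 0.646, and 0 higher and 2 lower in MII, with a median of -0.455. Its part in the result was not tested.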

How the results depend on the processing

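The 2863 genes called in round spermatids became 112 with the Sertoli covariate, 1177 at a fold change of at least 2, and between 1080 and 3573 when 1 library was left out. The 1080 called without the library labelled KO replicate 1 became 1843 with DESeq2, 1828 with no filter, 69 with the Sertoli covariate, 678 at a fold change of at least 2, and between 161 and 1728 when a further library was left out. The 1 gene called in the difference between stages became 65 with no filter, 19 with DESeq2, 0 with limma-voom and with a filter of 5 CPM in 3 libraries, 2 with the Sertoli covariate, and between 0 and 2 when 1 library was left out. The near-zero change of Pan2 turned negative with total count scaling (-0.0562), DESeq2 (-0.0102), limma-voom (-0.42) and the Sertoli covariate (-2.39, edgeR adjusted p = 0.0938), and lay between -1.32 and 0.407 when 1 library was left out. Pan3 was between -0.0119 and 0.130 when 1 library was left out, negative without WT replicate 2. With the Sertoli covariate Gstm1 was at -0.35, Dazl at -0.0856, mt-Nd1 at -0.25 and Wt1, itself a marker in that sum, at -0.33. The cause of these shifts was not tested. Of 146 named genes called in round spermatids, 126 lost their call with the Sertoli covariate, 56 without WT replicate 3, 51 without KO replicate 1, 16 with limma-voom and 15 with the GC curve. Leaving out X and Y genes gave 2455 calls, DESeq2 3706 and only the 6 round spermatid libraries 3593.

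With the replicate number as a block, 2691 genes were called in round spermatids, 3 in the difference between stages, and Pan2 was at -0.23. The numbers were not taken to pair the libraries: deviations of same-numbered KO and WT libraries correlated at 0.0101, 0.0817 and 0.155, and KO replicate 1 correlated more with WT replicate 2 (0.0742). With 3 libraries per group, changes of genes near 0 CPM are the least certain.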
